A study of Mus musculus with 6 samples.

Results

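Erythroid commitment was followed through 9 genes, taken by symbol from a table of 23228 genes: the transcription factor genes Klf1 and Gata1, the cofactor gene Zfpm1, the receptor gene Epor, the enzyme genes Car1, Car2 and Alas2, and the membrane protein genes Slc4a1 and Ermap. All 9 were in the table, and all 9 passed the filter on low values (1 FPKM or more on average across all 6 libraries), as 10477 genes did in all. RNA sequencing was done on LSK cells, bone marrow cells that lack lineage markers and carry Sca-1 and c-Kit, among which stem cells and multipotent progenitors lie. The cells came from wild-type Ly5.1+ donors and had spent 8 weeks in Ly5.2+ recipients that were ICAM-1-/- (3 libraries) or WT (3 libraries), all labelled C57BL/6. Donor cells were thus wild type in both groups, and the genotype in the labels is that of the host. The labels do not say whether a library holds cells of a single recipient or of a pool, so p-values measure the spread between these libraries, which may be technical. The values are FPKM, a share of mapped fragments divided by transcript length, which can be compared between genes. They carry no counts, so the depth behind them is unknown.

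Red cell production starts when a progenitor raises GATA1 and KLF1 against factors of other lineages. GATA1 binds the sequence GATAA and acts with its cofactor FOG-1, the product of Zfpm1, and KLF1 binds CACCC boxes at globin, heme and membrane genes. The erythropoietin receptor then carries the survival signal of committed cells, carbonic anhydrases mark progenitors on the way to red cells, and heme and membrane proteins follow. LSK cells lie upstream of this path.

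The promoters of 4 of the genes are shown because they hold matches to the motifs of both factors. A table of RefSeq promoters on GRCm38.p6, each with 250 bases before and 50 after the gene's start, held 6 of the 9 genes (Klf1, Gata1, Zfpm1, Epor, Alas2 and Ermap). GATAA or its reverse complement TTATC was present in 4 of these 6, against 25.4% of all 32851 promoters of that length, and CACCC or its reverse complement GGGTG in 6 of 6, against 57.5%. The GATAA matches began 80 bases before the start in Klf1, 54 in Epor, 86 in Alas2 and 67 in Ermap, all on the opposite strand to the gene. Those of Epor and Alas2 were part of the longer AGATAA, found in 11.2% of promoters. The promoters of Klf1, Epor, Alas2 and Ermap lie, in that order, at chr8:84901732-84902031 (plus strand), chr9:21963527-21963826 (minus strand), chrX:150547167-150547466 (plus strand) and chr4:119189946-119190245 (minus strand). They are written on the strand of the gene, with GATAA and CACCC matches of either strand in capitals. A match is a description of the letters and not a bound site.
Klf1: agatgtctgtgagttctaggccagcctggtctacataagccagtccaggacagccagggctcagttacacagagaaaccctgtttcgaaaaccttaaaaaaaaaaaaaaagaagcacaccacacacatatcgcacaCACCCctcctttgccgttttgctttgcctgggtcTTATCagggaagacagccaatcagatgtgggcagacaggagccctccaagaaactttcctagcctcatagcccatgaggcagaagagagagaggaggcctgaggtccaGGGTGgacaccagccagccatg
Epor: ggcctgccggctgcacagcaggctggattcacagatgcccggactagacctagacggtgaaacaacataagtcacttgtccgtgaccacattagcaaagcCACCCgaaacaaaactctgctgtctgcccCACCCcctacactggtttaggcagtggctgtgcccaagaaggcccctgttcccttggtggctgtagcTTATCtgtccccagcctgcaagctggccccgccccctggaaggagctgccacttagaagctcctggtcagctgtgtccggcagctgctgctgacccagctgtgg
Alas2: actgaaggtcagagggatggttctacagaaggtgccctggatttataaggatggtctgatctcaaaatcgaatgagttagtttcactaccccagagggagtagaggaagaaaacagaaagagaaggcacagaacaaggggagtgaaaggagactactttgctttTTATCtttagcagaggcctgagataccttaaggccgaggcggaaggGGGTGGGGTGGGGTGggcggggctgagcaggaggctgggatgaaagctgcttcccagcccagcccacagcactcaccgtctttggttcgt
Ermap: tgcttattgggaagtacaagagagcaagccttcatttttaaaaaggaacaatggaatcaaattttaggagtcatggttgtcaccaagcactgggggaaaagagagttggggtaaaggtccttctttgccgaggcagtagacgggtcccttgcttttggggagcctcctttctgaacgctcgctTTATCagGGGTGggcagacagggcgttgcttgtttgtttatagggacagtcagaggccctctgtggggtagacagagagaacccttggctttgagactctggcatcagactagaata

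The libraries were uneven, and this touches each value below. WT replicate 1 listed 39.6% of tested genes at 0, ICAM-1-/- replicates 1 and 2 listed 10.7% and 10.2%, and the other 3 between 0.735% and 1.82%. Gapdh, a glycolytic gene of every cell, was itself at 0 in WT replicate 1, so a 0 is given here only as listed. Xist, of the inactive X chromosome, was at 73.5 FPKM in ICAM-1-/- replicate 1 and 241 FPKM in WT replicate 1 and at most 0.153 FPKM in the other 4, while the Y-linked Ddx3y was listed at 0 in those 2 and above 0 in the other 4. In both replicate 1 libraries, 12 of 12 macrophage markers stood above their level in the other 4, as 13.4% of tested genes did. Their summed level was 1117, 34.95 and 145 FPKM in the ICAM-1-/- replicates 1 to 3, against 2680, 102 and 28.7 FPKM in WT replicates 1 to 3. Of the antigen genes of the sort, Kit was above 0 in every library (6.88 to 44.7 FPKM) and Ly6a was listed at 0 in WT replicate 1 alone. The 10 LSK markers, Kit and Ly6a among them, summed to 165, 208 and 406 FPKM in the ICAM-1-/- replicates 1 to 3. Their sums were 69.1, 196 and 284 FPKM in WT replicates 1 to 3. WT replicate 1 had no value above 0 for 5 of these markers, and ICAM-1-/- replicate 1 had none for 2. Cd34, another of the 10, was 0.0203 FPKM in WT replicate 1, against 58.6 to 144 FPKM elsewhere. Among markers of cells that the lineage gate removes, 8 neutrophil markers summed to 188, 290 and 1287 FPKM in the ICAM-1-/- replicates 1 to 3, against 606, 2147 and 645 FPKM in WT replicates 1 to 3, with 5 of the 8 listed at 0 in ICAM-1-/- replicate 1 and 3 in WT replicate 1. The 8 B cell markers summed to 109, 63.3 and 99.3 FPKM in the ICAM-1-/- replicates 1 to 3, against 38.8, 367 and 159 FPKM in WT replicates 1 to 3, where 7 of the 8 were listed at 0 in WT replicate 1.

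No erythroid commitment gene passed the test between recipient genotypes. Each was compared in the limma fit of all tested genes on log2(FPKM + 1), as the ICAM-1-/- mean less the WT mean, with Benjamini-Hochberg adjustment over all 10477 genes. Of the 9 genes 0 passed an adjusted p of 0.05 and 0 had an unadjusted p under 0.05. Among all genes 0 (0%) passed and 54 (0.515%) reached that unadjusted level. Separate ranges in the 2 groups were seen for 0 of the 9 genes and for 4.08% of all genes. The differences were above 0 for 6 and below 0 for 3 of the 9, with a median of 0.08, where 53.8% of all genes were above 0 and their median was 0.08. With the replicate number as a block, 0 of the 9 genes passed, where 13 of all genes did (0.124%, with 0.105% higher and 0.0191% lower). There 0 of the 9 had an unadjusted p under 0.05 against 2.65% of all genes. That fit took each gene's variance wholly from the trend over all genes, so its p-values may be too small. The pairing behind the block is weak for replicates 2 and 3. Within replicates 2 and 3, 0 of the 9 passed, where 0.0286% of all genes did, all of them higher, and 0 of the 9 had an unadjusted p under 0.05 against 1.50%. Differences there were above 0 for 3 of the 9 and for 30.6% of all genes, with medians of -0.15 and -0.30. In bulk libraries fewer erythroid cells and less of a transcript per cell cannot be told apart.

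**Figure D1:**
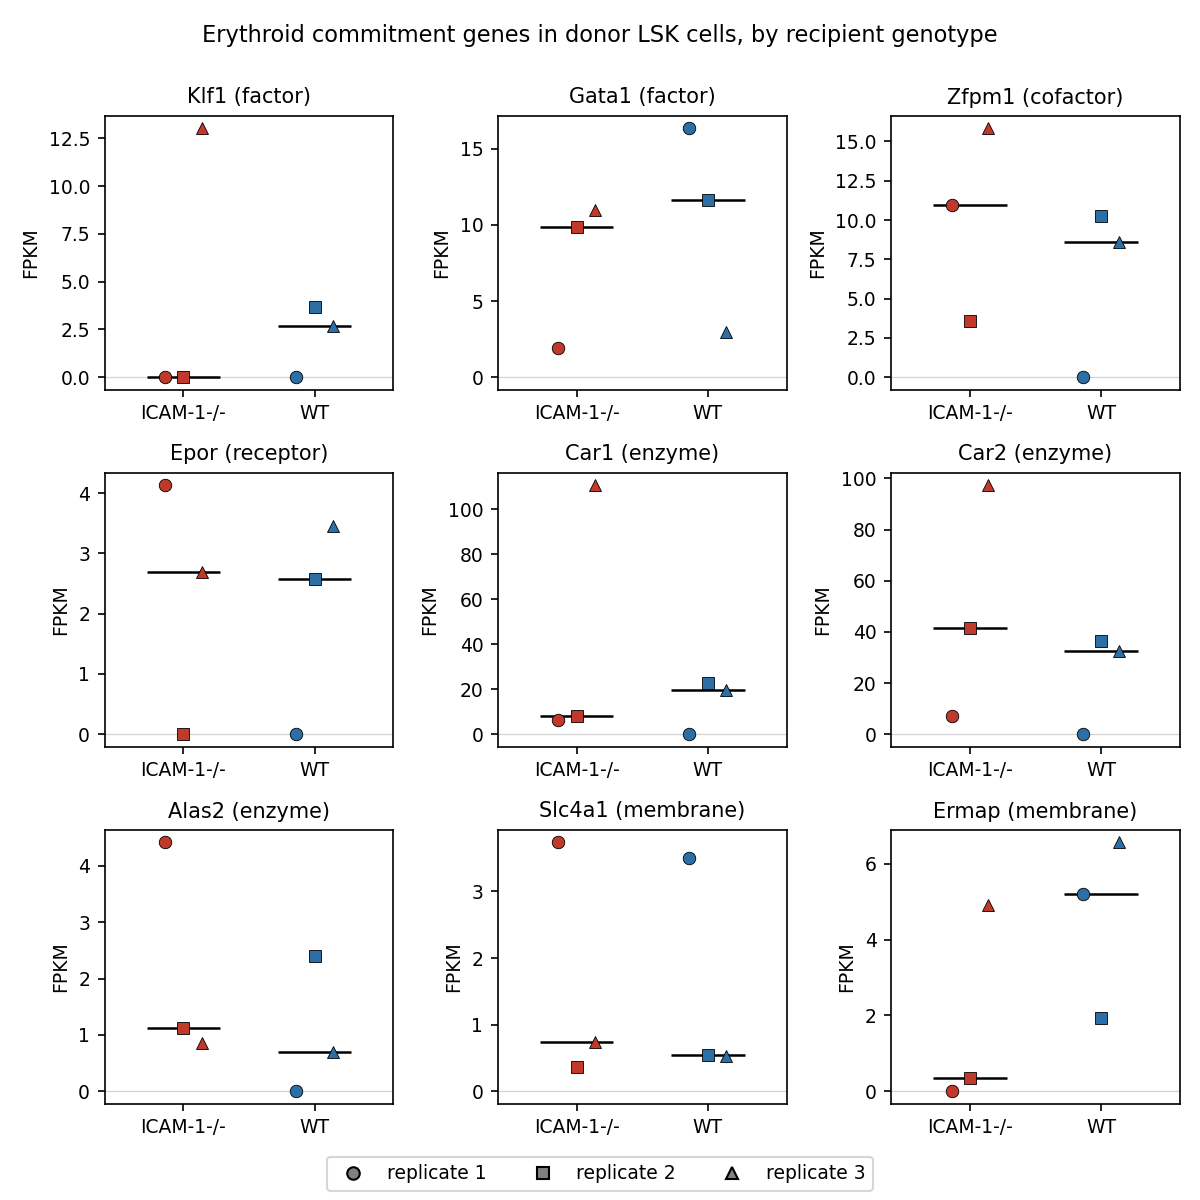
FPKM of the 9 genes in each library (linear axes, 1 panel per gene), with ICAM-1-/- recipients left and WT recipients right; symbols mark the replicate number and the bar is the median of 3. The groups overlap in every panel, and Klf1, Zfpm1, Car1 and Car2 are highest in ICAM-1-/- replicate 3.

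Klf1 encodes the zinc finger factor that activates the adult beta-globin gene. It was listed at 0 in ICAM-1-/- replicates 1 and 2 and stood at 13.0 FPKM in ICAM-1-/- replicate 3, against 0, 3.70 and 2.67 FPKM in WT replicates 1 to 3. A single ICAM-1-/- library thus held the highest value, and the other two shared the lowest with WT replicate 1. The log2 difference was -0.10 ± 1.16 (SE, n = 3 libraries each; limma adjusted p = 1.00). Without ICAM-1-/- replicate 3 it was -1.37, and 0.54 without either of the other ICAM-1-/- libraries. It was also above 0 without WT replicate 2 (0.33) or WT replicate 3 (0.15).

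Gata1, on the X chromosome, encodes the factor needed for red cell and platelet lineages. It was above 0 in all 6 libraries: 1.90, 9.89 and 11.01 FPKM in the ICAM-1-/- replicates 1 to 3, against 16.3, 11.6 and 3.00 FPKM in WT replicates 1 to 3. The lowest and the highest FPKM both belonged to replicate 1 libraries. Its mean was 7.60 ± 4.97 FPKM in ICAM-1-/- and 10.3 ± 6.76 FPKM in WT recipients (SD, n = 3 each), a log2 difference of -0.40 ± 0.96 (SE; limma adjusted p = 1.00). The difference was above 0 within replicates 2 and 3 (0.69), without ICAM-1-/- replicate 1 (0.26) and without WT replicate 1 (0.03).

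Zfpm1 stood at 10.99, 3.55 and 15.8 FPKM in the ICAM-1-/- replicates 1 to 3, against 0, 10.3 and 8.61 FPKM in WT replicates 1 to 3. Both WT values above 0 lay inside the ICAM-1-/- range. The log2 difference of 1.03 ± 1.11 (SE; limma adjusted p = 1.00) rested on the 0 of WT replicate 1, without which it was -0.10. In WT replicate 1 Gata1 had its highest FPKM of all libraries while its cofactor gene was listed at 0. That library listed 39.6% of tested genes at 0. After median-of-ratios scaling Gata1 was highest in ICAM-1-/- replicate 2 (23.4), with WT replicate 1 at 12.5.

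Gata1 was also set against the factors it is known to oppose or replace. Gata2 encodes the related factor of stem and progenitor cells that GATA1 displaces during red cell formation. The log2(FPKM + 1) level of Gata1 minus that of Gata2 was -1.52, 1.83 and -0.66 in the ICAM-1-/- replicates 1 to 3, against 0.52, -0.02 and -1.08 in WT replicates 1 to 3. The balance thus lay on either side of 0 in both groups. Sfpi1, the older symbol of the PU.1 gene Spi1 of myeloid and lymphoid cells, stood at 90.5, 13.7 and 61.2 FPKM in the ICAM-1-/- replicates 1 to 3, against 0, 53.2 and 42.3 FPKM in WT replicates 1 to 3. It was above Gata1 in 5 of 6 libraries, all but WT replicate 1. Fli1, an ETS factor of the megakaryocyte lineage that KLF1 opposes, stayed at 23.3 to 41.8 FPKM in all 6 libraries and was above Klf1 and Gata1 in each.

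Epor, which encodes the erythropoietin receptor, was among the low genes. It stood at 4.13, 0 and 2.69 FPKM in the ICAM-1-/- replicates 1 to 3, against 0, 2.58 and 3.45 FPKM in WT replicates 1 to 3. Each group held a library listed at 0. The log2 difference was 0.08 ± 0.97 (SE; limma adjusted p = 1.00), which was -0.12 after median-of-ratios scaling and -1.06 within replicates 2 and 3. It was also below 0 without WT replicate 1 (-0.58), ICAM-1-/- replicate 1 (-0.39) or ICAM-1-/- replicate 3 (-0.15). Epor lies on chromosome 9, as Icam1 does, with 36 protein-coding genes between them in GENCODE M21.

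Downstream of the receptor, none of 13 tested signalling genes passed in either direction (median log2 difference -0.0036, all genes 0.08). Bcl2l1, the survival gene that erythropoietin is known to induce, had a log2 difference of -1.62 ± 1.02 and Sh2b3, an adaptor that dampens JAK2, one of -1.10 ± 0.98 (SE). Stat5a, the transcription factor activated by the receptor, had one of 1.01 ± 1.19 and the docking protein gene Gab1 one of 0.62 ± 0.85 (SE). All 4 had a limma adjusted p of 1.00. WT replicate 1 was listed at 0 for Stat5a and Gab1 and was the highest library for Bcl2l1 (32.1 FPKM, against 5.81 and 5.07 FPKM in WT replicates 2 and 3). Within replicates 2 and 3 the differences were -0.79 for Bcl2l1, -1.45 for Sh2b3, -0.60 for Stat5a and 0.24 for Gab1.

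Car1 and Car2, which encode cytosolic carbonic anhydrases, were the most abundant of the 9 genes in ICAM-1-/- replicate 3 and in WT replicates 2 and 3. Car1, an early marker of erythroid progenitors in the mouse, stood at 6.51, 8.18 and 111 FPKM in the ICAM-1-/- replicates 1 to 3, against 0, 22.8 and 19.8 FPKM in WT replicates 1 to 3. In FPKM, ICAM-1-/- replicate 3 was far above both WT libraries with a value, and the other ICAM-1-/- libraries were below them. After median-of-ratios scaling ICAM-1-/- replicate 2 (19.3) was close to WT replicates 2 and 3 (20.3 and 20.0). The log2 difference was 1.32 ± 1.38 (SE; limma adjusted p = 1.00).

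Car2 stood at 7.25, 41.7 and 97.2 FPKM in the ICAM-1-/- replicates 1 to 3, against 0, 36.5 and 32.7 FPKM in WT replicates 1 to 3. The log2 difference was 1.59 ± 1.39 (SE; limma adjusted p = 1.00), the largest of the 9. Both differences turned with the 0 of WT replicate 1: without that library they were -0.17 for Car1 and -0.13 for Car2, and Car1 had 0.07 without ICAM-1-/- replicate 3. Within replicates 2 and 3 they were 0.52 and 0.87. Car2 was there the 1 gene of the 9 whose groups did not overlap, as 15.9% of all genes did not. The pair did not keep 1 ratio, since Car1 and Car2 were close in ICAM-1-/- replicates 1 and 3 and Car1 was 2.22 below Car2 on the log2(FPKM + 1) scale in ICAM-1-/- replicate 2.

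The rest of the carbonic anhydrase family was mostly low or listed at 0. Among 14 other listed carbonic anhydrase genes, 3 passed the filter, and none of the 3 passed the test. They were Car9, the hypoxia-induced membrane form (0 to 4.42 FPKM), Car13 (0 to 3.08 FPKM) and Car14, which was listed at 0 in all 3 ICAM-1-/- libraries and in WT replicate 3, with 12.5 FPKM in WT replicate 1 and 0.174 FPKM in WT replicate 2. Car1 has 20.1% of its 31-base stretches in the transcripts of another gene, so its level is less certain than that of Car2, which has none.

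Alas2, also X-linked, encodes the erythroid form of the first enzyme of heme synthesis. It stood at 4.41, 1.13 and 0.849 FPKM in the ICAM-1-/- replicates 1 to 3, against 0, 2.41 and 0.704 FPKM in WT replicates 1 to 3. It was below Alas1, the form used by all cells, in every library, by between 1.25 and 5.05 on the log2(FPKM + 1) scale. The log2 difference was 0.63 ± 0.86 (SE; limma adjusted p = 1.00), and -0.28 within replicates 2 and 3. Apex2, a DNA repair gene, overlaps Alas2 on the opposite strand and shares most of the 13.1% of Alas2 31-base stretches found elsewhere. It stood at 3.84, 1.12 and 2.82 FPKM in the ICAM-1-/- replicates 1 to 3, against 0, 3.06 and 2.51 FPKM in WT replicates 1 to 3. Whether counting used strand is not stated in the labels or notes, so reads of Alas2 and Apex2 may not have been told apart.

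The other heme genes gave no call. Of 13 tested, 0 passed in either direction, with 8 differences above and 5 below 0 and a median of 0.45 (all genes 0.08); 8 of the 13 were listed at 0 in WT replicate 1. Urod, an enzyme of the pathway, had a log2 difference of 1.88 ± 1.25, Fech, which inserts iron, 1.22 ± 0.97, and Tfrc, the transferrin receptor gene, -1.17 ± 0.95 (SE; limma adjusted p = 1.00 each). Within replicates 2 and 3 these were -0.05, 0.36 and -1.17, the list's median was -0.52 and that of all genes -0.30.

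Slc4a1, which encodes band 3, the anion exchanger of the red cell membrane, was highest in replicate 1 of both groups. It stood at 3.74, 0.360 and 0.739 FPKM in the ICAM-1-/- replicates 1 to 3, against 3.50, 0.547 and 0.531 FPKM in WT replicates 1 to 3. Both replicate 1 libraries were above the other 4, as they were for 13.4% of tested genes. Slc4a1 was the 1 gene of the 9 with this order. Its mean was 1.61 ± 1.85 FPKM in ICAM-1-/- and 1.53 ± 1.71 FPKM in WT recipients (SD, n = 3 each), a log2 difference of 0.02 ± 0.87 (SE; limma adjusted p = 1.00). This sign did not hold without ICAM-1-/- replicate 1 (-0.52), WT replicate 2 (-0.23) or WT replicate 3 (-0.24), while it was 0.38 without ICAM-1-/- replicate 2 and 0.54 when WT replicate 1 was left out.

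The same order held for Beta-s, a gene of the adult beta-globin locus matched to Hbb-bs. It stood at 486, 11.7 and 39.4 FPKM in the ICAM-1-/- replicates 1 to 3, against 1387, 25.7 and 46.0 FPKM in WT replicates 1 to 3. The macrophage markers given above were also highest there, among them Vcam1 and Hmox1, and their part in the levels of Slc4a1 and Beta-s was not tested. Car1 and Car2 had the opposite order, with both replicate 1 libraries below the other 4 for each. How many of all genes share that order was not counted. WT replicate 1, at 0 for both, listed 39.6% of tested genes at 0, and ICAM-1-/- replicate 1 listed 10.7%.

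**Figure D2:**
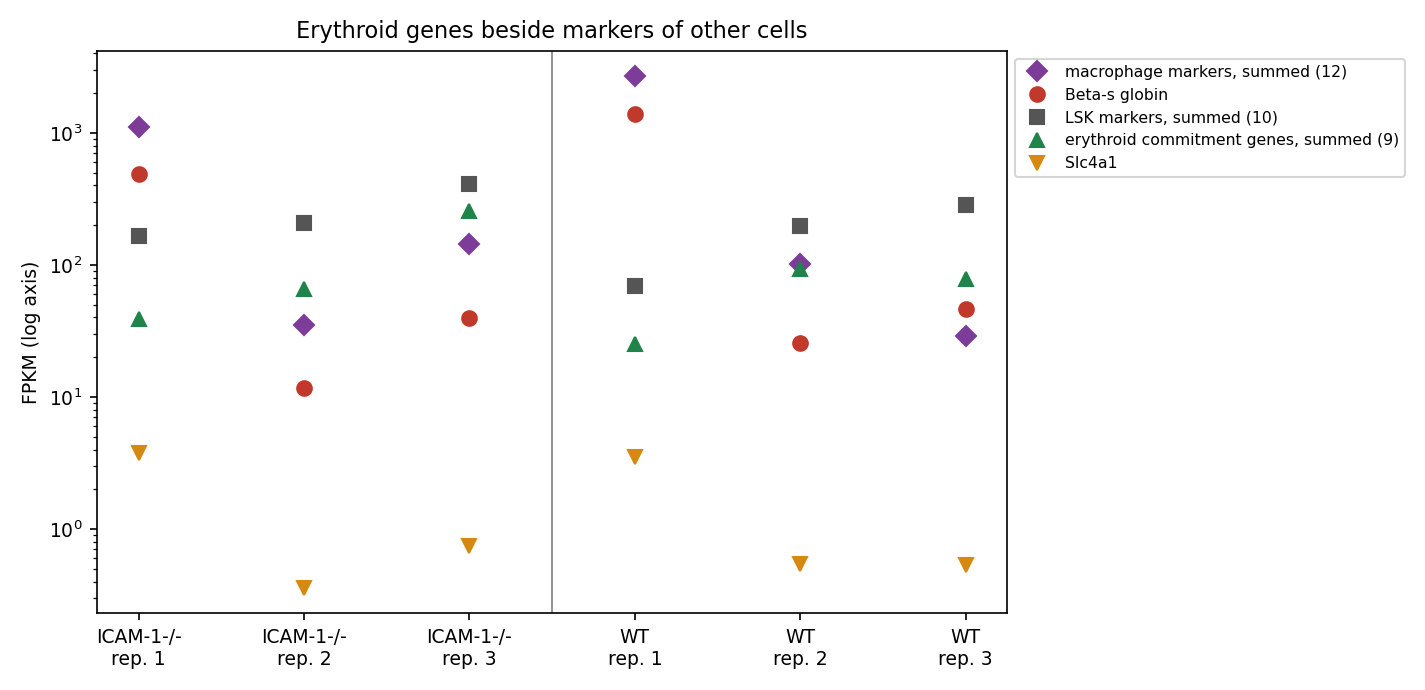
Summed FPKM of the 9 erythroid commitment genes, 12 macrophage markers and 10 LSK markers, and FPKM of Beta-s and Slc4a1, in each library on a log axis, with ICAM-1-/- libraries left of the line. Slc4a1, Beta-s and the macrophage markers are highest in replicate 1 of both groups, where the summed commitment genes are lowest in each group (38.9 FPKM in ICAM-1-/- and 25.0 FPKM in WT recipients).

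Ermap, a butyrophilin-like adhesion protein of erythroid membranes that carries a human blood group, had the lowest exact p of the 9. It stood at 0, 0.358 and 4.91 FPKM in the ICAM-1-/- replicates 1 to 3, against 5.20, 1.92 and 6.56 FPKM in WT replicates 1 to 3. ICAM-1-/- replicates 1 and 2 were below every WT library, and ICAM-1-/- replicate 3 was inside the WT range. The log2 difference was -1.36 ± 0.97 (SE; limma adjusted p = 1.00). Its two-sided p by exact permutation was 0.2, and 3 against 3 libraries allow no p below 0.1. Its sign held in every library left out, with differences of -2.15 to -0.86, and within replicates 2 and 3 it was -0.73. For the other 8 genes that permutation p, exact and two-sided, was between 0.4 and 1.

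**Figure D3:**
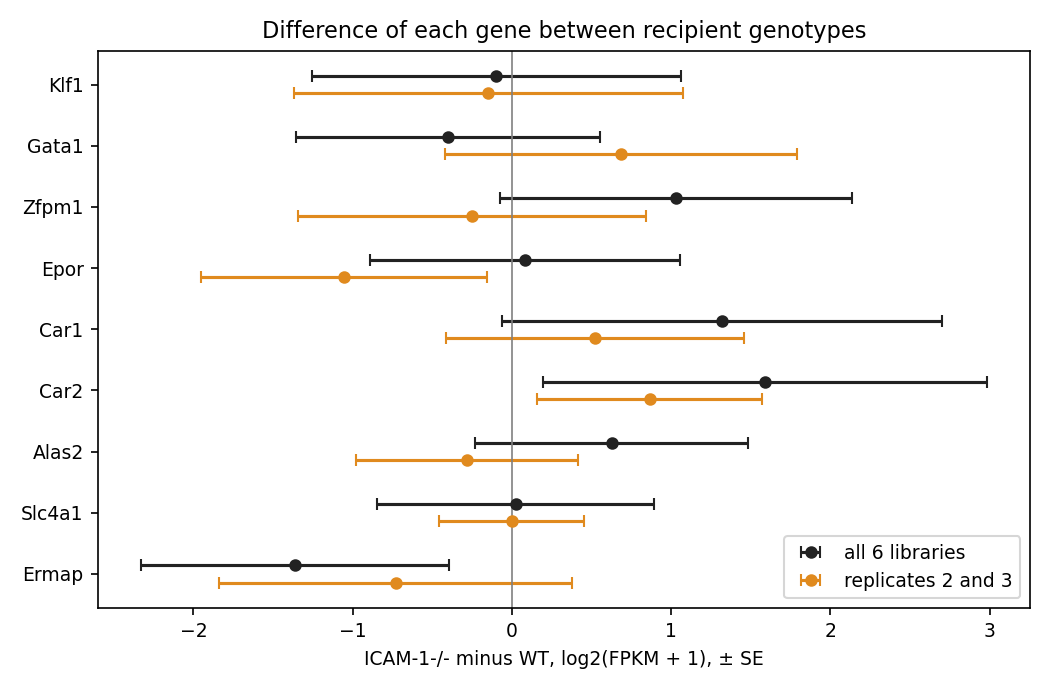
Differences of the 9 genes (ICAM-1-/- less WT, log2 of FPKM + 1) with standard errors from limma, over all 6 libraries (black) and within replicates 2 and 3 (orange). Gata1, Zfpm1, Epor, Alas2 and Slc4a1 change sign between the 2 sets, and Klf1, Car1, Car2 and Ermap keep theirs. Slc4a1 lies close to 0 in both (0.02 and -0.0014).

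In the order of levels, Car2 and Car1 led in ICAM-1-/- replicate 3 (97.2 and 111 FPKM, above 94.6% and 95.2% of tested genes), WT replicate 2 and WT replicate 3. Gata1 and Zfpm1 came next by median over the 6 libraries, at 10.5 and 9.44 FPKM, and their ranges overlapped widely. Klf1, Epor, Alas2, Slc4a1 and Ermap had medians of 1.34, 2.63, 0.987, 0.643 and 3.42 FPKM and overlapped each other. WT replicate 1 had another order, with Gata1 first at 16.3 FPKM, then Ermap and Slc4a1, and the other 6 genes listed at 0.

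ICAM-1-/- replicate 3 held the highest FPKM of 4 of the 9 genes (Klf1, Zfpm1, Car1 and Car2), where 29.0% of tested genes had their highest value in it. After median-of-ratios scaling it held that of Klf1, Zfpm1 and Car1, against 10.2% of tested genes, while Car2 and Gata1 were then highest in ICAM-1-/- replicate 2 (98.5 and 23.4 rescaled FPKM). Before scaling, ICAM-1-/- replicate 3 also had the highest value of 7 of 9 tested LSK markers and of 5 of 6 tested mast cell and basophil markers. After scaling it had that of 3 of the 9 LSK markers, where ICAM-1-/- replicate 2 had 5, and of 3 of the 6 mast cell and basophil markers. Cpa3, a mast cell protease gene, was at 77.8 FPKM there, against 5.37 to 43.2 FPKM in the 4 other libraries with a value. Their part in the high commitment genes of that library was not tested.

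Membrane and skeleton genes that follow commitment were mostly low. Among 20 that were listed, 8 passed the filter, and of these 0 passed the test (median 0.10, all genes 0.08). Slc2a1, a glucose transporter gene, had a log2 difference of 1.27 ± 1.05, Aqp1, a water channel gene, 0.92 ± 1.22 and Gypc, a glycophorin gene, 0.69 ± 0.77 (SE; limma adjusted p = 1.00 each). WT replicate 1 listed Slc2a1 and Aqp1 at 0. Without either replicate 1 library the differences were -0.037 for Slc2a1, -0.39 for Aqp1 and 0.37 for Gypc. Icam4, an erythroid adhesion gene next to Icam1 on chromosome 9, was listed at 0 in ICAM-1-/- replicates 1 and 2 and was at 5.82 FPKM in ICAM-1-/- replicate 3, against 0, 6.01 and 1.11 FPKM in WT replicates 1 to 3.

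Klf1 shared this division with several low genes, which were singled out after their values were seen. Rhag, Rhd, Kel, Icam4 and Cd36 were at 0 in the same 3 libraries as Klf1 and above 0 in the other 3. So were 3.72% of all genes in the table, a total that counts genes listed at 0 in all 6 libraries. Rhd, of the Rhesus complex, was at 3.95 FPKM in ICAM-1-/- replicate 3, against 0.867 and 2.19 FPKM in WT replicates 2 and 3. Kel, of the Kell blood group, was at 0.763 FPKM in ICAM-1-/- replicate 3, against 0.475 and 0.114 FPKM in those WT libraries. The 3 libraries in which these genes are listed at 0 are those with the most genes listed at 0, and the part of that in the pattern was not tested.

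**Figure D4:**
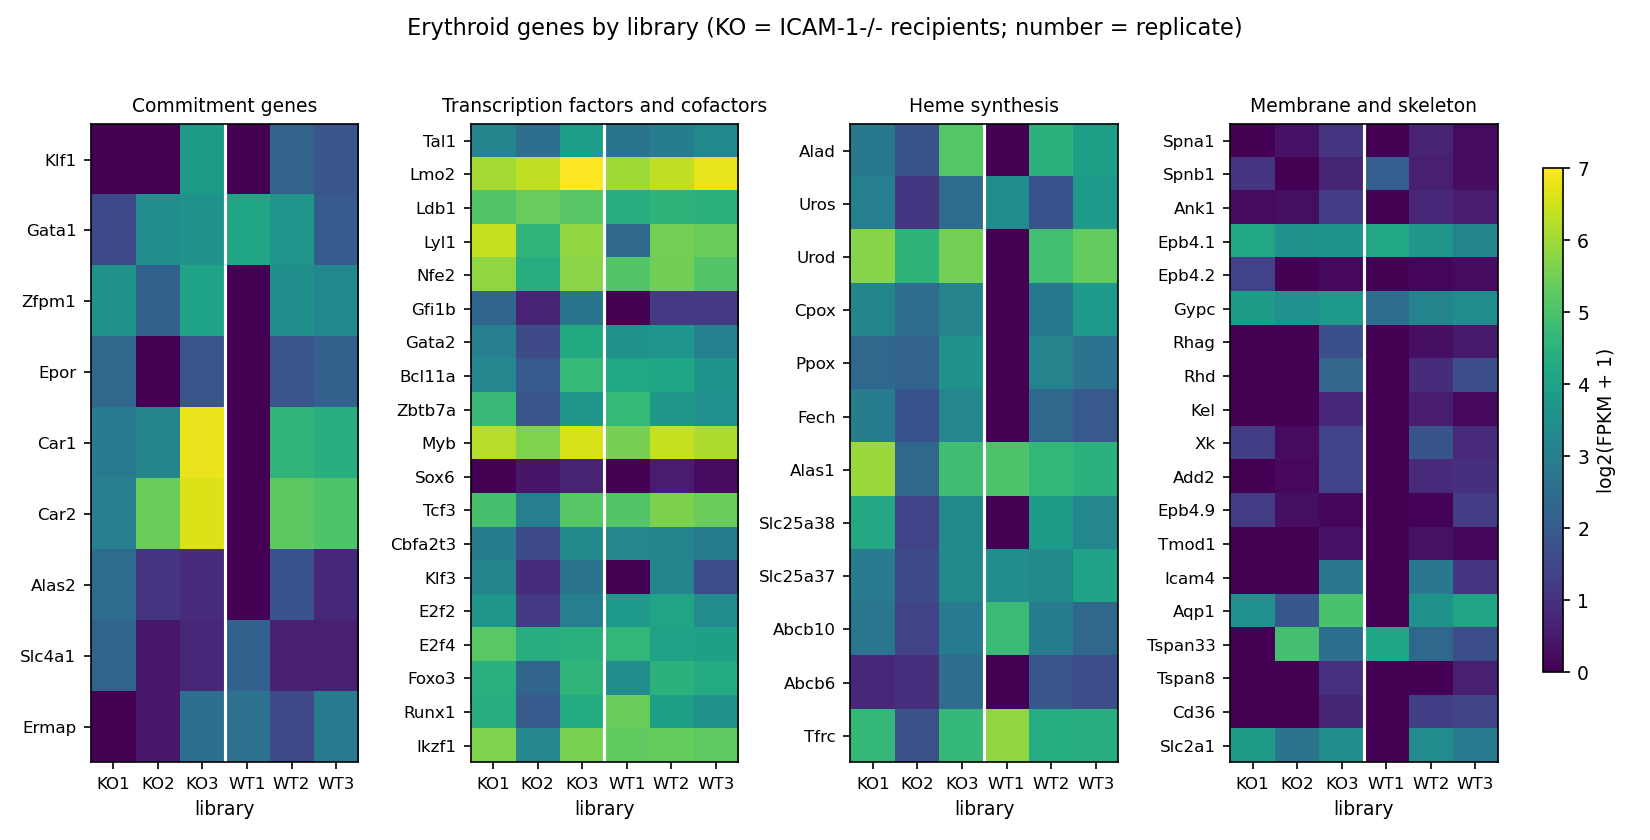
log2(FPKM + 1) of the 9 commitment genes, 19 erythroid transcription factor and cofactor genes, and heme and membrane genes in each library, with ICAM-1-/- libraries (KO1 to KO3) left of WT libraries (WT1 to WT3). WT replicate 1 is dark (listed at 0) for 6 commitment genes, while factor genes such as Lmo2 and Myb are present in all 6 libraries.

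Of the factor genes upstream of or beside GATA1 and KLF1, at most 2 were listed at 0 in any library. Among 19 that were listed, 18 passed the filter and 0 passed the test, with 9 differences on each side of 0 and a median of -0.11 (all genes 0.08). Lyl1, a basic helix-loop-helix gene related to Tal1, stood at 82.0, 22.9 and 56.6 FPKM in the ICAM-1-/- replicates 1 to 3, against 4.27, 45.3 and 41.6 FPKM in WT replicates 1 to 3 (log2 difference 1.15 ± 0.96, SE). Gfi1b, a repressor of erythroid and megakaryocyte cells, had 1.10 ± 0.89 with WT replicate 1 listed at 0. E2f2, which acts in the red cell cycle, had -1.11 ± 0.90 and Tcf3, the E protein partner of TAL1, -0.996 ± 0.78 (SE; limma adjusted p = 1.00 for all 4). Within replicates 2 and 3 they were -0.26, 0.52, -1.63 and -1.42, beside a median of -0.30 over all genes.

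Outside these lists, the 5 tested genes closest to the mean standardised profile of the 9 were Tmem8, Hoxa9, St3gal3, Immp2l and Ces2g. Pearson's r over the 6 libraries was 0.991 to 0.995, given as a description. The 9 genes did not share 1 profile. Between pairs of them r ran from -0.84 (Car2 and Slc4a1) to 0.93 (Car1 and Car2), so likeness to their mean is not likeness to each gene. Hoxa9, a homeobox gene of stem and progenitor cells, stood at 1.33, 0.539 and 6.56 FPKM in the ICAM-1-/- replicates 1 to 3, against 0, 3.05 and 2.02 FPKM in WT replicates 1 to 3. All 5 were lowest in WT replicate 1 and highest in ICAM-1-/- replicate 3, as was the mean profile by which they were chosen.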

How the data were processed

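The authors deposited gene-level FPKM values, 1 column per library, for 6 libraries. Per the labels' protocols, RNA was taken up in Trizol and libraries came from an Illumina TruSeq kit. The submitters' processing notes name cutadapt, TopHat2 2.0.11 and Cufflinks 2.1.1. The genome build, annotation and filters of the files are nowhere stated in the labels or notes (not given in the sources used here). Positive values under 0.001 FPKM occurred in every library (24 to 111), so counts were not recovered.

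Columns were matched to samples by title. Genes averaging 1 FPKM or more were tested on log2(FPKM + 1) with limma 3.58.1 in R 4.3.3 (group only, mean-variance trend, Benjamini-Hochberg at 0.05), which was tested on simulated data. The scale understates changes of low genes. Deviations from the group means of same-numbered libraries correlated at 0.35, 0.13 and 0.31, above 0.1, so the numbers, present in the labels, were taken to pair the libraries. The pairing is read from the data and is weak for replicates 2 and 3: ICAM-1-/- replicate 2 correlated at 0.15 with WT replicate 3, and ICAM-1-/- replicate 3 at 0.31 with WT replicate 2. Blocking on that number, 13 genes (0.124%) and 0 of the 9 commitment genes passed.

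Named list genes were up to 4 per list, of smallest p, and the 5 genes most like the members. Older symbols were matched through RefSeq synonyms. Shared 31-base stretches, overlaps and neighbours came from GENCODE M21 (GRCm38). Some list genes are not reported here. Members and lists were chosen with earlier results of these data known. Alternatives covered the pseudocount, filter, scaling, trend, weights, block and left-out libraries. Where a library was left out, a group of 2 remained.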

Additional observations from a re-analysis of the deposited data

How the results depend on the processing

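In every alternative run, 0 of the 9 commitment genes passed the test. The count of genes over the whole table was 0, and 4 with library weights, 13 with the replicate block, 3 within replicates 2 and 3 and 0 to 1 with 1 library left out. The replicate block changed no call among the 9 genes. The median difference of the 9 ranged from -0.13 to 0.79 with 1 library left out. Signs turned for Epor under median-of-ratios scaling (-0.12), which moved the median of all genes to 0.24. They turned for Klf1 (0.62), Gata1 (0.17) and Epor (-0.058) with library weights. Within replicates 2 and 3 they turned for Gata1 (0.69), Zfpm1 (-0.25), Epor (-1.06), Alas2 (-0.28) and Slc4a1 (-0.0014). With values under 0.001 FPKM as missing they turned for Zfpm1 (-0.10), Car1 (-0.17), Car2 (-0.13) and Klf1 (1.76, from 1 ICAM-1-/- and 2 WT libraries). The cause was not tested. With 1 library left out the ranges were -1.37 to 0.54 for Klf1, -1.03 to 0.26 for Gata1, -0.10 to 1.65 for Zfpm1, -0.58 to 0.79 for Epor, -0.17 to 2.11 for Car1, -0.13 to 2.58 for Car2 and -0.52 to 0.54 for Slc4a1. Alas2 (0.14 to 1.09) and Ermap (-2.15 to -0.86) kept their sign there. Library weights moved Ermap to -0.39, Alas2 to 0.0079, Zfpm1 to 0.52, Car2 to 0.59 and Slc4a1 to 0.49. A pseudocount of 0.1 moved Ermap to -2.76, Klf1 to -1.001, Zfpm1 to 2.05, Car1 to 2.35, Car2 to 2.65, Alas2 to 1.57 and Slc4a1 to 0.0026. At least 1 FPKM in 3 libraries removed Slc4a1 from the test.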

Other observations

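Among globins, near-identical copies took turns. Hba-a1, an adult alpha-globin gene, stood at 0.0453, 0.0768 and 27.6 FPKM in the ICAM-1-/- replicates 1 to 3, against 0, 19.3 and 43.8 FPKM in WT replicates 1 to 3. Hba-a2, its copy, stood at 69.8, 2.79 and 0.0402 FPKM in the ICAM-1-/- replicates 1 to 3, against 0, 0.0840 and 0.317 FPKM in WT replicates 1 to 3. Where one was above 1 FPKM the other was below it in all 5 libraries with a value. Hba-a2 has 92.6% of its 31-base stretches in other transcripts, mostly those of Hba-a1, so the split between the copies is uncertain. The embryonic globin genes Hbb-bh1, Hbb-y and Hba-x were listed at 0 in all 6 libraries.

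Tfr2, the second transferrin receptor that pairs with the erythropoietin receptor, is in the table as Trfr2. It stood at 0.411, 2.51 and 12.8 FPKM in the ICAM-1-/- replicates 1 to 3, against 0, 5.58 and 5.89 FPKM in WT replicates 1 to 3. Its highest value was in ICAM-1-/- replicate 3, the library highest for Klf1 and Car1, which was also the highest for 29.0% of tested genes. Tfr2 and the 2 alpha-globin genes were singled out here after their values were seen.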
